A study of Mus musculus with 52 samples.

Results

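The genes described here are Gm2a, which encodes the GM2 ganglioside activator protein, and 8 genes of enzymes and activators that break down sphingolipids in the lysosome. The 8 are Hexa, Psap, Neu1, Glb1, Galc, Arsa, Asah1 and Smpd1. They are 9 of the 48526 gene identifiers in each of the 3 expression tables of a study of miR-146a in the mouse brain. Gm2a was chosen by its values in these data, being lower in knockout than in wild-type amygdala and hippocampus at postnatal day 30, so those 2 differences are given as a description with no test. The other 8 genes were added for their function, with earlier results of these data known.

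Sphingolipids are membrane lipids of which the nervous system holds large amounts, as gangliosides in neurons and as galactosylceramide and sulfatide in myelin. They are taken apart in the lysosome a step at a time by acid hydrolases. Several of these enzymes reach their substrate only with the help of a small activator protein that lifts the lipid out of the membrane, and loss of a step leads to storage of its substrate, as in Tay-Sachs, Krabbe and Niemann-Pick diseases.

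Poly-A RNA was sequenced from brains of miR-146a knockout (KO) mice and wild-type (WT) mice. Whole cortex was taken at embryonic day 14 (E14) from 5 KO and 4 WT samples. Amygdala, frontal cortex and hippocampus were taken at postnatal day 30 (P30), with 4 KO and 4 WT samples per region. The same regions at P60 gave 4 KO and 3 WT samples for amygdala, 4 KO and 3 WT for frontal cortex, and 2 KO and 3 WT for hippocampus. These 14 groups hold 52 libraries. The labels name no strain, sex or allele, and the mice are given only as knockout and wild type. Stage and region follow the labels of the samples, although the series' own text on its design has P6 and sensory cortex instead. Animals of a genotype came from different mothers, and samples with the same number in several regions of an age may come from 1 animal.

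Each value is a normalised count, close to counts per 1e6 reads (CPM), scaled by the authors within the table of an age. The values resolved into whole reads, which gave 2933026 to 9469235 reads per library. The 9 genes had at least 28 reads in every library, so 9 of 9 passed the filter on low values in all 3 tables. Mir146 itself had a read in 1 of the 52 libraries, so the knockout was not checked here. Hippocampal markers (Prox1, Tdo2 and Dsp) summed to at least 255 in every hippocampal library and to at most 50.2 in every other postnatal library. The cortical markers Rorb and Cux2 summed to at least 330.3 in the frontal cortex libraries, above every other postnatal library. The amygdala markers Rspo2, Meis2 and Ppp1r1b were not higher in amygdala than in frontal cortex, so that label was not checked by them. In P60 hippocampus the summed level of these 3 genes was 400.4 (KO) and 586 (WT) in the libraries numbered 1, against 42.98 to 66.1 in the others. It ran from 151.7 to 337.4 in the P60 amygdala libraries and from 195.9 to 467.0 in those of the P60 frontal cortex. The source of these transcripts was not tested. Among the P30 hippocampal libraries, WT replicate 3 had a summed level of the choroid plexus markers Ttr, Folr1, Kl and Aqp1 of 5286, against 37.3 to 1157 in the others. In the P30 amygdala this sum ran from 11.72 to 1183 in WT (median 28.56) and from 8.64 to 12.98 in KO libraries. In the P30 frontal cortex it reached 685.5 in KO and 256.6 in WT libraries.

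The mature miR-146a-5p, the strand that guides silencing, is shown with its seed (bases 2 to 8) in capitals, as annotated by RefSeq on GRCm38.p6 at chr11:43374435-43374456, minus strand. Below it are the matches to its seed in the 3′ UTRs of Gm2a and Galc, in capitals with 8 bases on either side. The match of Gm2a is shown for the gene the comparisons turn on, and those of Galc because it has the most in the set.
mmu-miR-146a-5p: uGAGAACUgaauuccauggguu
Gm2a, from base 2029 of the UTR: ccacgcctAGTTCTCttgatttg
Galc, from base 1014 of the UTR: aacagaccAGTTCTCcatgtggg
Galc, from base 1337 of the UTR: ctccagaaAGTTCTCtgctatac

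The letters searched were AGTTCTC, the match to bases 2 to 8, on the sense strand of the GENCODE M21 transcript with the longest coding sequence. Galc has 2 matches, and Gm2a and Asah1 have 1 each. Hexa, Psap, Neu1, Glb1, Arsa and Smpd1 have none in these windows. Of the 20979 genes with such a UTR, 2114 (10.1%) hold at least 1 match, against 3 of the 9 genes here. UTR length differs among them, with 3496 bases in Gm2a and 225 in Hexa. A letter match is a description of the sequence only.

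Gm2a (ENSMUSG00000000594) lies on chromosome 11 at chr11:55098115-55113029 in GRCm38, plus strand, and its protein presents GM2 ganglioside to β-hexosaminidase A. It was lower in KO than in WT samples in the P30 and P60 means of every region. The P30 amygdala held 56.6, 52.8, 53.3 and 54.4 in the KO samples, against 69.8, 65.96, 82.45 and 75.5 in the WT samples. The P30 hippocampus held 44.1, 50.4, 40.45 and 47.99 in the KO samples, against 67.7, 70.03, 77.6 and 61.2 in the WT samples. In both regions every KO library lay below every WT library. These are the 2 settings by which the gene was chosen, and the KO minus WT differences in amygdala and hippocampus were -0.42 ± 0.08 and -0.59 ± 0.08 on the log2(value + 1) scale (standard error). The share of genes with all KO below all WT libraries was 2.52% in the P30 amygdala and 1.63% in the P30 hippocampus, and the share called by limma was 0.0263% and 0.0316%.

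In the P30 frontal cortex, which did not enter the choice but may come from the same animals, Gm2a had 56.7, 55.99, 57.4 and 61.3 in the KO samples, against 72.8, 71.8, 67.3 and 72.4 in the WT samples. The groups did not overlap, as for 0.985% of all genes in that direction. The means were 57.8 ± 2.36 in KO and 71.05 ± 2.57 in WT samples (SD, n = 4 each), a ratio of 0.814. The difference of -0.29 ± 0.08 (log2, standard error) was not called across the 18985 genes tested (limma, adjusted p = 1.0), where 0.0158% of genes were.

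At P60 the KO samples were again the lower ones in each region. The P60 hippocampus had 43.6 and 42.3 in the 2 KO samples, against 68.2, 59.0 and 66.2 in the 3 WT samples, a ratio of 0.667 between the means. The log2 difference was -0.57 ± 0.10 and missed the threshold of 0.05 over 19256 genes (limma, adjusted p = 0.0983), with 0.0208% of genes called. Leaving out 1 library at a time kept this adjusted p between 0.0939 and 0.675, where the fit that leaves 1 KO sample assumes that it varies like the other groups. KO replicate 1 and WT replicate 1, which hold the high sums of Rspo2, Meis2 and Ppp1r1b given above, had Gm2a values of 43.6 and 68.2. These were close to those of the other libraries of their genotype.

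The P60 amygdala had 49.7, 54.6, 53.8 and 46.1 in the KO samples, against 58.1, 66.8 and 67.96 in the WT samples. The P60 frontal cortex had 49.5, 55.4, 50.7 and 53.8 in the KO samples, against 56.5, 60.4 and 67.8 in the WT samples. Neither pair of groups overlapped, as for 2.64% and 2.58% of all genes in that direction, and for 5.56% in the hippocampus of that age. The log2 differences were -0.33 ± 0.09 in amygdala (limma, adjusted p = 0.999) and -0.23 ± 0.09 in frontal cortex (limma, adjusted p = 1.0). The shares of genes called were 0.0208% and 0.0312%.

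At E14 Gm2a had 11.9, 15.8, 14.1, 15.02 and 15.6 in the KO samples, against 17.5, 16.3, 14.3 and 17.7 in the WT samples. The groups overlapped, and the difference of -0.17 ± 0.11 was not called (limma, adjusted p = 0.9998, with 0.0489% of 18397 genes called). Among all genes 0.511% had every KO library below every WT library there. Over the 5 settings that played no part in the choice, limma called Gm2a in 0, with an unadjusted p under 0.05 in 4, and voom called it in 0. KO samples lay wholly below WT samples in 4 of the 5, all 4 of them postnatal.

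**Figure D1:**
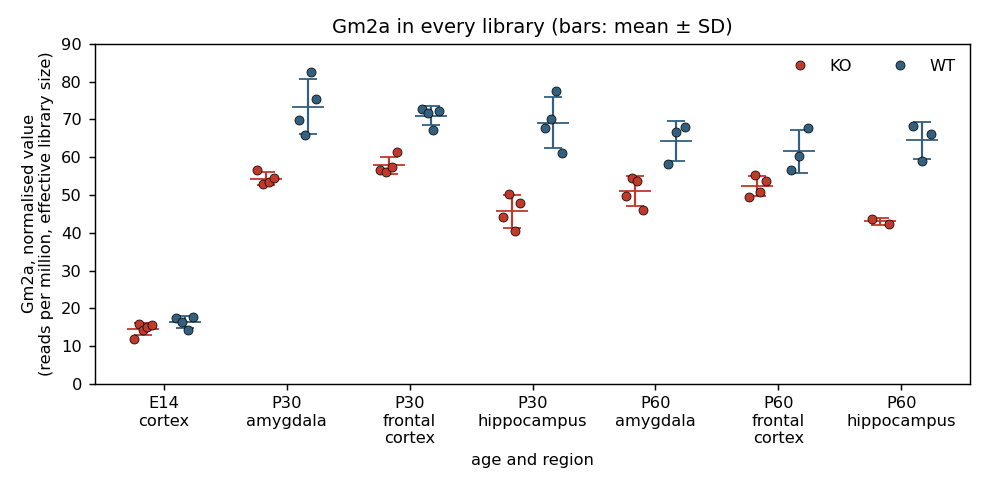
Gm2a in each of the 52 libraries (points, normalised value) by age and region, with KO left of WT and bars for the mean ± SD. In the 6 postnatal settings all KO points lie below all WT points, while at E14 the KO points at 11.9 to 15.8 overlap the WT points at 14.3 to 17.7.

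The KO minus WT difference of Gm2a in hippocampus minus that in frontal cortex at P60 was -0.34 ± 0.14 on the log2 scale, and this difference of differences was not called (limma, adjusted p = 0.9998). Among the 19256 genes 0.0% passed that test. At P30 the values side by side were -0.59 for hippocampus, -0.42 for amygdala and -0.29 for frontal cortex, with no test since 2 of them chose the gene. WT samples held similar mean levels in the 3 regions at P30, with 69.1 ± 6.76 in hippocampus, 73.4 ± 7.18 in amygdala and 71.05 ± 2.57 in frontal cortex (SD, n = 4 each). KO samples held 45.7 ± 4.36 in hippocampus, 54.3 ± 1.67 in amygdala and 57.8 ± 2.36 in frontal cortex (SD, n = 4 each).

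Several lists of cell type markers had lower KO means in the 2 settings where Gm2a was chosen, with no marker called. All 7 oligodendrocyte markers (Mbp, Mog, Mag, Mobp, Cnp, Cldn11 and Opalin) were lower in the KO mean of the P30 amygdala, and all 7 also in the P30 hippocampus. Their summed level ran from 684.6 to 1219 in KO and from 925.4 to 3749 in WT amygdala. It ran from 2516 to 4404 in KO and from 2968 to 9469 in WT hippocampus. All 8 microglia markers, Csf1r and C1qa among them, were also lower in the KO mean of both, with sums of 162.7 to 207.8 in KO and 205.9 to 281.1 in WT amygdala, and of 160.8 to 208.5 in KO and 181.5 to 209.9 in WT hippocampus. The 3 oligodendrocyte precursor markers (Pdgfra, Cspg4 and Olig2), the 3 endothelial, the 4 neural progenitor and the 4 choroid plexus markers were all lower in the KO mean of both settings too. Of the 6 astrocyte markers 6 were lower in the P30 amygdala and 2 in the P30 hippocampus. The precursor sums did not overlap in the P30 amygdala, with 138.7 to 163.2 in KO and 175.7 to 207.2 in WT samples, and they overlapped in the P30 hippocampus, with 103.5 to 138.7 in KO and 127.1 to 210.1 in WT samples. In both settings 1 of the 4 neuron markers was lower in the KO mean. None of the markers of these lists was called between KO and WT samples by limma or voom. Over the 7 settings the unadjusted limma p was under 0.05 in 7 of 21 precursor, 7 of 53 microglia and 3 of 46 oligodendrocyte tests. The counts were 4 of 41 for astrocyte, 2 of 21 for endothelial, 3 of 28 for neural progenitor, 0 of 22 for choroid plexus and 0 of 28 for neuron markers. Among all genes 4.65% of such tests were under 0.05, and 0.0158% to 0.0489% of genes were called. The part of these markers in the Gm2a difference was not tested, and in bulk tissue fewer cells of a type and less RNA per cell cannot be told apart.

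In the other postnatal settings the direction of the oligodendrocyte and microglia markers varied, while most precursor markers were lower in the KO mean. The relation of these markers to Gm2a was not tested. In the P30 frontal cortex 0 of the 7 oligodendrocyte and 6 of the 8 microglia markers were lower in the KO mean, with oligodendrocyte sums of 3051 to 3800 in KO and 2399 to 3753 in WT samples. In the hippocampus at P60 these counts were 1 of 7 and 4 of 8, with oligodendrocyte sums of 1934 to 2689 in KO and 1556 to 2204 in WT samples and microglial sums of 184.8 to 222.3 in KO and 202.8 to 221.1 in WT samples. In the P60 amygdala 6 of 7 oligodendrocyte and 6 of 8 microglia markers were lower in the KO mean, and in the P60 frontal cortex 6 of 7 and 3 of 8. The oligodendrocyte medians there were -0.10 in amygdala and -0.02 in frontal cortex. The 3 oligodendrocyte precursor markers were all lower in the KO mean of the P30 and P60 frontal cortex, and 2 of 3 in the P60 amygdala and hippocampus. All 6 astrocyte and all 3 endothelial markers were lower in the KO mean of the P60 hippocampus. No oligodendrocyte or microglia marker was at 0 in every library of a postnatal group. At P30, 3 of 4 KO and 1 of 4 WT libraries of each region carried female transcripts. With sex in the fit the P30 differences were -0.39 in amygdala, -0.26 in frontal cortex and -0.56 in hippocampus.

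None of the other 8 genes was called between KO and WT samples in any of the 7 settings by limma, where 0.0158% to 0.0489% of all genes were. Of the 56 tests 3 had an unadjusted p under 0.05, beside 4.65% of the tests over all genes, and voom called 0. The largest log2 difference in size was +0.21 ± 0.10 for Neu1 at E14. The differences of the 8 genes ran from -0.21 to +0.21. In 0 of the 56 did every KO library lie above every WT library, as it did for 0.647% of all genes at E14. At P30 that share was 4.12% for amygdala, 1.37% for frontal cortex and 1.51% for hippocampus, and 2.4%, 2.68% and 6.15% for the same regions at P60. Those of Gm2a ran from -0.59 to -0.17.

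Hexa encodes the α subunit of β-hexosaminidase A, the enzyme that Gm2a protein serves, and it did not share the pattern of Gm2a. The P30 hippocampus had Hexa at 23.4, 24.6, 28.8 and 23.9 in the KO samples, against 22.1, 24.7, 25.4 and 25.9 in the WT samples, and these overlapped. The P30 amygdala had 30.6, 31.8, 35.6 and 31.1 in the KO samples, against 32.5, 31.4, 25.8 and 28.1 in the WT samples. Its KO minus WT differences ran from -0.09 to +0.13 over the 7 settings (limma, adjusted p of at least 0.664).

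Neu1 encodes the lysosomal sialidase, which removes sialic acids from gangliosides and glycoproteins, and Glb1 encodes acid β-galactosidase, which acts on GM1 ganglioside. Neu1 at E14 had 12.1, 11.4, 13.6, 13.7 and 14.7 in the KO samples, against 11.98, 10.1, 11.4 and 10.95 in the WT samples. These overlapped (limma, adjusted p = 0.9998). Its postnatal differences ran from -0.19 in the P60 amygdala to +0.14 in the P30 hippocampus. Glb1 was the other member with groups that did not overlap in a setting. It had 9.32 and 9.39 in KO and 9.54, 9.99 and 10.49 in WT samples of the P60 hippocampus, a log2 difference of -0.09 ± 0.15 (limma, adjusted p = 1.0), in a setting where 5.56% of genes were separated in that direction.

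Psap encodes prosaposin, which is cut into the 4 saposins that activate several of the hydrolases, and it was the highest of the 9 genes. Its KO means were 608 ± 33.4 in P30 amygdala and 482 ± 30.7 in P30 hippocampus, and its WT means were 548 ± 26.8 in P30 amygdala and 509.5 ± 99.3 in P30 hippocampus (SD, n = 4 each). Its differences ran from -0.06 to +0.15 over the 7 settings. WT replicate 3 of the P30 hippocampus, the library with the highest sum of choroid plexus markers, stood highest of its group for Psap (655 against 435 to 485.5 in the other 3 WT samples). It also stood highest there for Gm2a, Glb1, Asah1 and Smpd1. Without it the Gm2a difference in that region was -0.53.

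Galc removes the galactose of galactosylceramide, and Arsa, which encodes arylsulfatase A, removes the sulfate of sulfatide. Their differences ran from -0.11 to +0.02 for Galc and from -0.21 to +0.11 for Arsa. Asah1 encodes acid ceramidase and Smpd1 encodes acid sphingomyelinase. Asah1 at E14 had 61.9, 58.97, 51.0, 60.3 and 50.9 in the KO samples, against 58.1, 70.3, 68.03 and 64.03 in the WT samples, a difference of -0.20 ± 0.09 (limma, adjusted p = 0.9998). Smpd1 had opposite signs at P30, with +0.18 ± 0.08 in the amygdala (limma, adjusted p = 0.489) and -0.17 ± 0.08 in the hippocampus (limma, adjusted p = 0.520). The difference between those 2 effects, +0.35 on the log2 scale, was not called (limma, adjusted p = 0.712), and without WT replicate 3 of the hippocampus the hippocampal value was -0.08.

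The median KO minus WT difference over the 9 genes lay between -0.07 and +0.07 in each setting, and that over all tested genes between -0.004 and +0.01. In the P30 hippocampus the number of genes called over the whole table depended on single libraries, with 6 in all, 265 without WT replicate 1, 12 without WT replicate 3 and 11 without KO replicate 4. None of the 8 genes other than Gm2a was called in those fits. In the P60 amygdala the replicate numbers were taken to pair the samples from their correlations, although no label pairs them. There 7 genes were called with a replicate block and 4 without it, and Gm2a was -0.28 with the block (limma, adjusted p = 0.591).

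**Figure D2:**
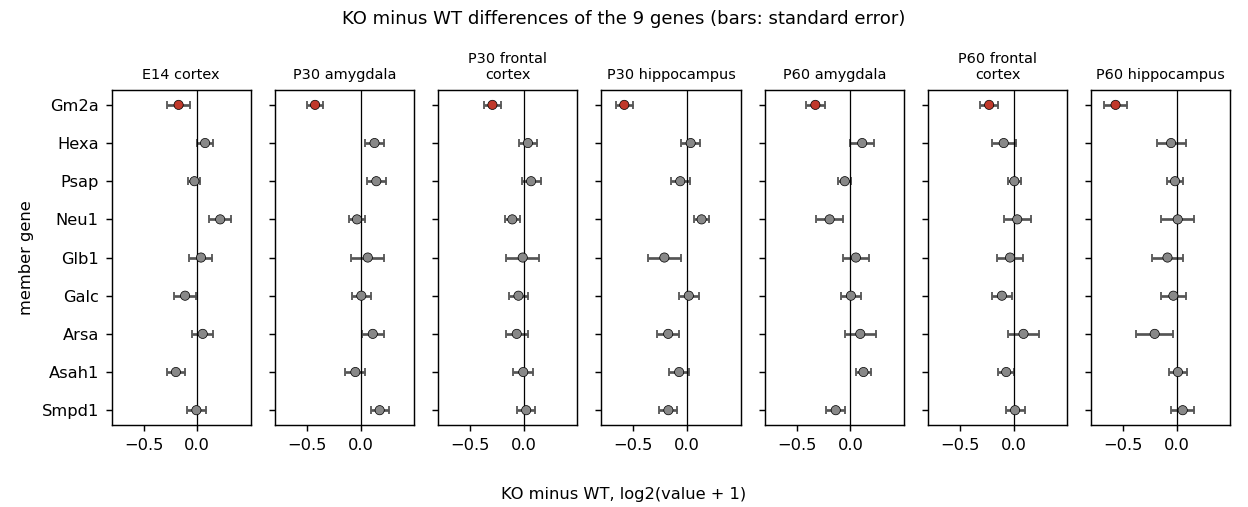
KO minus WT differences of the 9 genes on the log2(value + 1) scale in the 7 settings, with bars for the standard error and Gm2a in red. Gm2a lies left of 0 in each panel, between -0.59 and -0.17, while the other 8 genes lie between -0.21 and +0.21 on both sides of 0.

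Further genes of sphingolipid metabolism were examined in the same fits. Of 7 other lysosomal genes of this pathway (Gla, Ctsa, Sumf1, Scarb2, Neu4, Npc1 and Npc2), limma called 0 in any setting, in 48 tests of which 6 had an unadjusted p under 0.05, and voom called 0. Their median in the P30 hippocampus was -0.22, with 6 of 7 lower in KO, beside -0.004 over all genes, and in the P30 frontal cortex it was +0.05 with 1 of 7 lower. Of the 10 ganglioside synthesis genes limma and voom called 0, with 2 of 70 tests at an unadjusted p under 0.05. Their median was +0.13 in the P30 amygdala, where 1 of 10 was lower in KO. The 4 genes of myelin galactolipid synthesis (Ugt8a, Gal3st1, Fa2h and Cers2) had medians of -0.42 in the P30 amygdala and -0.79 in the P30 hippocampus. None was called by limma or voom, with 3 of 26 tests at an unadjusted p under 0.05. Their sum in the P30 hippocampus ran from 151.4 to 272.1 in KO and from 173.0 to 645.3 in WT samples. The mean sum was higher in KO in the P30 frontal cortex (220.9 against 204.9), P60 amygdala (75.7 against 71.1) and P60 hippocampus (124.6 against 105.9). It was lower in KO in the P60 frontal cortex (99.25 against 111.0) and E14 cortex (40.1 against 42.5). Of 23 general lysosomal genes such as Lamp1 and Ctsd, limma and voom called 0, with 12 of 160 tests at an unadjusted p under 0.05. Over all genes and the 7 settings together 4.65% of tests had an unadjusted p under 0.05, with 9.83% in the P30 amygdala, 9.56% in the P30 hippocampus and 1.95% to 4.07% in the other settings, and 0.0158% to 0.0489% of genes were called.

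The 9 genes differed widely in level. Per kilobase of the transcript with the longest coding sequence, the WT frontal cortex at P30 held 192 for Psap, 26.7 for Smpd1, 20.6 for Asah1, 17.2 for Gm2a, 12.2 for Hexa, 11.97 for Neu1, 6.96 for Galc, 5.57 for Glb1 and 3.91 for Arsa. Hexa (SD 1.02) and Neu1 (SD 0.199) did not differ beyond their spread, and the other neighbours in this order did so by more than the larger of their SDs. In the P30 hippocampus Gm2a kept the place below Asah1 and above Hexa in WT samples, and in KO samples its mean lay below those of Hexa and Neu1, with Gm2a and Neu1 within their spread. On this per-kilobase scale Gm2a was at 11.1 ± 1.06 in KO and 16.8 ± 1.64 in WT samples at P30, while Hexa was at 12.6 ± 1.24 in KO and 12.3 ± 0.836 in WT samples and Neu1 at 11.7 ± 0.973 in KO and 10.6 ± 0.610 in WT samples (SD, n = 4 each). At P60 the hippocampal level of Gm2a per kilobase was 10.4 ± 0.228 in KO (SD, n = 2) and 15.6 ± 1.18 in WT samples (SD, n = 3). That of Hexa was 13.4 ± 1.35 in KO and 14.1 ± 2.31 in WT samples of the same groups.

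Region differences were tested over both genotypes, and each gene below is given on the log2(value + 1) scale of normalised values. Arsa and Hexa were higher in the amygdala than in the frontal cortex at both ages. Glb1, Psap, Asah1 and Smpd1 were lower in the hippocampus than in the frontal cortex at P60. The share of all genes called was 37.3% for amygdala minus frontal cortex at P30 and 31.3% at P60, so the 4 and 3 of the 8 genes other than Gm2a called there are read against that background.

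Arsa was the member with the largest region difference. It averaged 17.01 ± 1.78 in the P30 amygdala, 13.3 ± 1.196 in the P30 frontal cortex and 11.4 ± 1.19 in the P30 hippocampus (SD, n = 8 each). At P60 it averaged 20.53 ± 1.34 in amygdala (SD, n = 7), 15.7 ± 2.86 in frontal cortex (SD, n = 7) and 12.04 ± 2.12 in hippocampus (SD, n = 5). At P60 the amygdala libraries held 18.1 to 22.1 and the hippocampal libraries 9.69 to 15.3. How many of all genes are separated like this between regions was not counted. The amygdala minus hippocampus difference was +0.53 at P30 (limma, adjusted p = 1.61e-06) and +0.75 at P60 (limma, adjusted p = 5.65e-05). The amygdala minus frontal cortex difference was +0.33 at P30 (limma, adjusted p = 0.000946) and +0.38 at P60 (limma, adjusted p = 0.0075). These calls also held with TMM scaling of the recovered reads. In WT samples alone the amygdala minus frontal cortex difference was +0.24 at P30 (limma, adjusted p = 0.102) and +0.38 at P60 (limma, adjusted p = 0.131), not called. In KO samples alone it was +0.42 at P30 (limma, adjusted p = 0.00479) and +0.38 at P60 (limma, adjusted p = 0.0447). The amygdala minus hippocampus difference was called in each genotype alone at both ages.

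Arsa and Galc act on myelin lipids, and myelin genes did not share this order. All 7 oligodendrocyte markers were called lower in the amygdala than in the frontal cortex at both ages, with medians of -1.38 at P30 and -0.83 at P60. Ugt8a, which makes galactosylceramide, had differences of -1.57 at P30 (limma, adjusted p = 0.000288) and -0.89 at P60 (limma, adjusted p = 0.0139). Galc averaged 30.8 ± 2.74 in amygdala and 26.2 ± 1.44 in frontal cortex at P30 (SD, n = 8 each), a difference of +0.22 (limma, adjusted p = 0.0075). With TMM scaling it was +0.16 and not called (limma, adjusted p = 0.0546).

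Hexa averaged 30.9 ± 2.90 in the P30 amygdala, 24.7 ± 1.61 in the P30 frontal cortex and 24.9 ± 1.98 in the P30 hippocampus (SD, n = 8 each). The amygdala exceeded the frontal cortex by +0.31 (limma, adjusted p = 0.00033) and the hippocampus by +0.30 (limma, adjusted p = 0.000289), and both calls held with TMM scaling. At P60 the amygdala minus frontal cortex difference was +0.24 (limma, adjusted p = 0.0284), and it was +0.17 and not called with TMM scaling (limma, adjusted p = 0.123). It also missed the threshold at +0.21 to +0.23 without KO amygdala replicate 1, WT amygdala replicate 1 or 2, or WT frontal cortex replicate 1 or 2 (limma, adjusted p of 0.0578 to 0.0833).

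Some members were lower in the hippocampus than in the frontal cortex, while Hexa, Neu1 and Galc were called in that comparison at neither age. Smpd1 averaged 53.3 ± 7.42 in hippocampus and 64.9 ± 1.79 in frontal cortex at P30 (SD, n = 8 each), a difference of -0.29 (limma, adjusted p = 0.000295). At P60 the difference was -0.23 (limma, adjusted p = 0.0138), and -0.20 without KO hippocampus replicate 1 (limma, adjusted p = 0.0668). Asah1 differed by -0.23 at P30 (limma, adjusted p = 0.00571) and by -0.34 at P60 (limma, adjusted p = 0.000148). At P60 Asah1 was at 42.8 to 48.6 in the 5 hippocampal libraries and at 53.9 to 60.7 in the 7 frontal cortex libraries. The share of all genes with such a gap was not counted. Without WT replicate 3 the P30 differences from frontal cortex were -0.34 for Smpd1 and -0.29 for Asah1, and Psap was called as well at -0.15 (limma, adjusted p = 0.00605). Arsa differed from frontal cortex by -0.20 at P30 (limma, adjusted p = 0.0267) and by -0.37 at P60 (limma, adjusted p = 0.0167). Both missed the threshold without KO or WT hippocampus replicate 2, and the P30 call also without KO frontal cortex replicate 4 or WT frontal cortex replicate 1 or 4, with values of -0.18 to -0.17 at P30 and -0.31 to -0.29 at P60. The share of all genes called was 43.3% for hippocampus minus frontal cortex at P30 and 32.8% at P60, against 3 and 5 of the 8 genes other than Gm2a, all of them lower.

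Glb1 was lower in the hippocampus than in the other regions at P60. It averaged 9.75 ± 0.491 in hippocampus (SD, n = 5), 13.3 ± 1.80 in frontal cortex (SD, n = 7) and 13.9 ± 0.879 in amygdala (SD, n = 7). The hippocampal libraries held 9.32 to 10.49 and those of the other regions 11.2 to 15.9. The share of all genes separated in this way between regions was not counted. The hippocampus minus frontal cortex difference was -0.41 (limma, adjusted p = 0.00232). At P30 it was -0.08 (limma, adjusted p = 0.576), where WT replicate 3 held 18.8, the highest Glb1 value of all 52 libraries. Whether the P30 and P60 differences differ was not tested, since the tables were scaled separately. Psap averaged 485 ± 7.26 in hippocampus (SD, n = 5) and 546 ± 24.4 in frontal cortex (SD, n = 7) at P60, a difference of -0.17 (limma, adjusted p = 0.0106).

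For amygdala minus hippocampus 5 of the 8 genes other than Gm2a were called at P30 and 4 of 8 at P60, all higher in the amygdala, with 44.1% and 28.9% of all genes called. Of all calls in this comparison 65.4% were higher in the amygdala at P30 with the deposited scaling, and 49.3% with TMM scaling of the recovered reads. At P60 those shares were 67.6% and 53.1%. With TMM scaling the P30 calls of Psap, Galc and Smpd1 were lost, with values of +0.14, +0.08 and +0.09, and Neu1 was called lower at -0.19 (limma, adjusted p = 0.00372). The Galc call, at +0.17, was lost in 8 of 16 fits with 1 library left out, at +0.14 to +0.17. Without WT hippocampus replicate 3 Glb1 (+0.24) and Asah1 (+0.15) were called too. Asah1 at P60 differed by +0.18 (limma, adjusted p = 0.0247), and that call was lost with TMM scaling at +0.11 and without KO hippocampus replicate 1 or 2 or WT hippocampus replicate 2 or 3, at +0.16 to +0.18. Its amygdala minus frontal cortex difference at P60, -0.16 (limma, adjusted p = 0.0233), was lost without WT amygdala replicate 2 or WT frontal cortex replicate 1, at -0.15. For amygdala minus frontal cortex the shares higher in amygdala were 62.8% at P30 and 64.8% at P60, against 48.5% and 49.5% with TMM scaling. Neu1 was lower in amygdala than in frontal cortex at P30, with a difference of -0.15 (limma, adjusted p = 0.022), of -0.21 with TMM scaling, and of -0.13 without KO frontal cortex replicate 2 (limma, adjusted p = 0.0529).

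Gm2a at P30 is given without a test between regions, since the values that chose it enter these differences. The hippocampus minus frontal cortex difference was -0.19 over both genotypes, -0.34 in KO samples alone and -0.04 in WT samples alone. At P60 it was -0.28 in the KO samples (limma, adjusted p = 0.0589) and +0.07 in the WT samples (limma, adjusted p = 0.686).

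**Figure D3:**
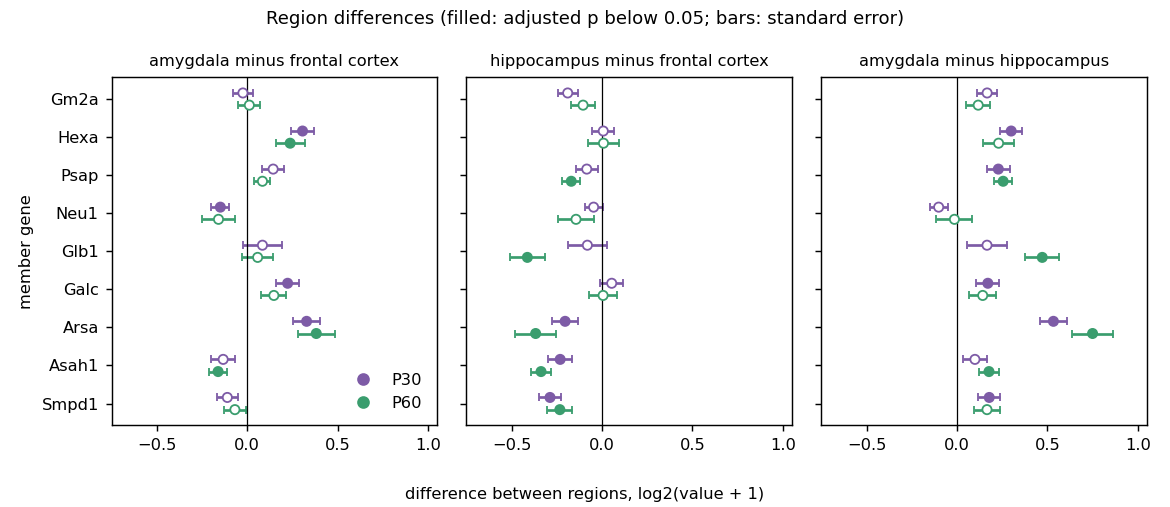
Differences between regions for the 9 genes on the log2(value + 1) scale at P30 (violet) and P60 (green), with filled points for an adjusted p below 0.05 (limma; Gm2a at P30 not tested) and bars for the standard error. Arsa lies farthest right for amygdala minus hippocampus at +0.53 and +0.75, and the filled points of hippocampus minus frontal cortex all lie left of 0.

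Across ages the values come from tables that were scaled separately, so they are a description with no test. Gm2a averaged 16.45 ± 1.58 in E14 cortex (SD, n = 4), 71.05 ± 2.57 in P30 frontal cortex (SD, n = 4) and 61.6 ± 5.72 in P60 frontal cortex (SD, n = 3) of WT mice. In KO mice it averaged 14.5 ± 1.56 (SD, n = 5), 57.8 ± 2.36 (SD, n = 4) and 52.3 ± 2.74 (SD, n = 4) at the same ages. The ratio of the P30 to the E14 mean in WT samples was 4.32 for Gm2a, 3.34 for Psap, 2.67 for Neu1, 2.07 for Smpd1, 1.73 for Arsa and 1.60 for Hexa. It was 1.10 for Glb1, 0.934 for Galc and 0.877 for Asah1. With the reads of all tables scaled together by TMM these ratios were 4.97 for Gm2a, 3.84 for Psap and 1.01 for Asah1, and the order of the first 6 genes stayed as given. Over the 20535 genes tested at either age the median log2 difference was -0.29, and 40.2% of genes were higher at P30. The ratios of P60 to P30 frontal cortex in WT samples ran from 0.867 for Gm2a to 1.15 for Hexa.

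**Figure D4:**
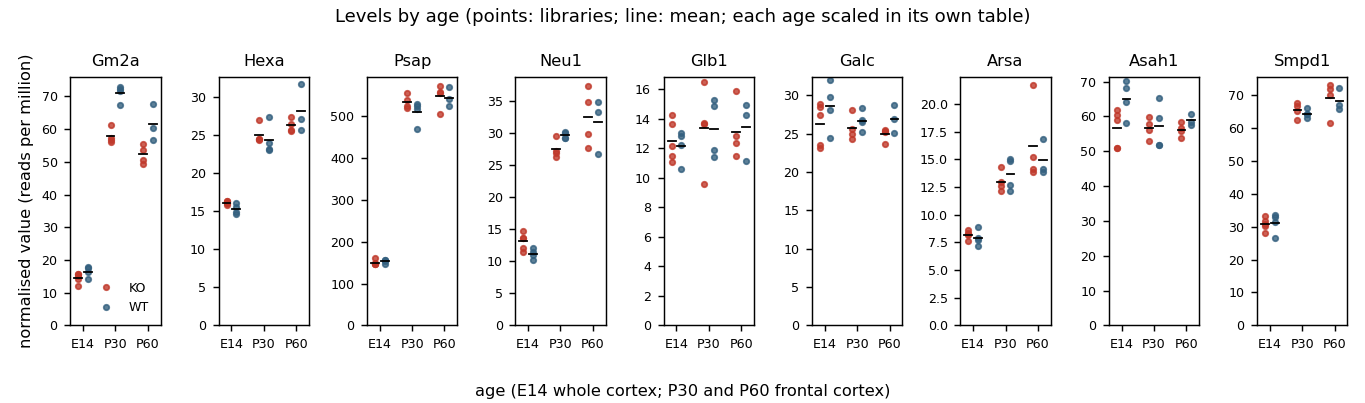
Normalised values of the 9 genes in E14 whole cortex and in P30 and P60 frontal cortex, with points for libraries, KO left of WT, and a line for the mean. The P30 means of Gm2a are 3.99 times (KO) and 4.32 times (WT) those at E14, while for Glb1, Galc and Asah1 these ratios lie between 0.877 and 1.10.

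The genes whose values ran most like those of Gm2a over the 24 P30 libraries were Map7d1 (Pearson r = 0.796), Slc39a8 (0.783), Fermt2 (0.766), Dvl3 (0.754) and Epb41l2 (0.75), among 13080 genes with a mean of at least 5. These libraries share regions, genotypes and probably animals. Taken as deviations from group means, the 5 highest were Lamb2 (0.786), Acadl (0.786), Eif2ak2 (0.770), Gm45073 (0.745) and Lzic (0.743). Among the 8 other members the likeness to Gm2a in these deviations at P30 ran from -0.57 for Hexa to 0.541 for Smpd1. It did not hold at P60, with 0.468 for Hexa and 0.00657 for Smpd1. For Psap it was 0.146 at P30 and -0.612 at P60. The 9 genes did not run together, since the median over their 36 pairs was 0.160 at P30. The highest pair at P30 was Psap with Smpd1 at 0.693.

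Gm2a lies 11.7 Mb from Mir146 (chr11:43374397-43374461, GRCm38) on the same chromosome. Of 17 protein-coding genes within 500 kb of Gm2a, itself included, 14 were tested in at least 1 setting. Lyrm7, an assembly factor of mitochondrial complex III that lies 237 kb before Gm2a, was called higher in KO samples in all 7 settings, by +0.93 to +1.43. Tnip1, an inhibitor of NF-κB signalling at 135 kb, had differences of +0.33 to +0.76, with KO above WT libraries in 6 of 7 settings, and was called in the P60 frontal cortex (limma, adjusted p = 0.00354). Of all genes 0.0158% to 0.0489% were called in a setting. Every KO library lay above every WT library for 0.647% of all genes at E14 and for 1.37% to 6.15% in the postnatal settings. Cdc42se2, an effector of Cdc42 at 310 kb, was called lower in the hippocampus at P30 and at P60, with differences of -0.60 and -0.76. Hint1 was called higher in the P30 amygdala by +0.48. Slc36a1, a lysosomal amino acid transporter 91.3 kb after Gm2a, had KO means below WT means in 7 of 7 settings and was called in 0, with differences of -0.52 to -0.01. G3bp1 was lower in the KO mean in 7 of 7 settings too, at -0.37 to -0.14, and called in 0. The called neighbours lay before Gm2a in chromosome order and had both signs. With KO mice compared only with WT mice, an effect of the missing miRNA and of sequence linked to it cannot be told apart.

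**Figure D5:**
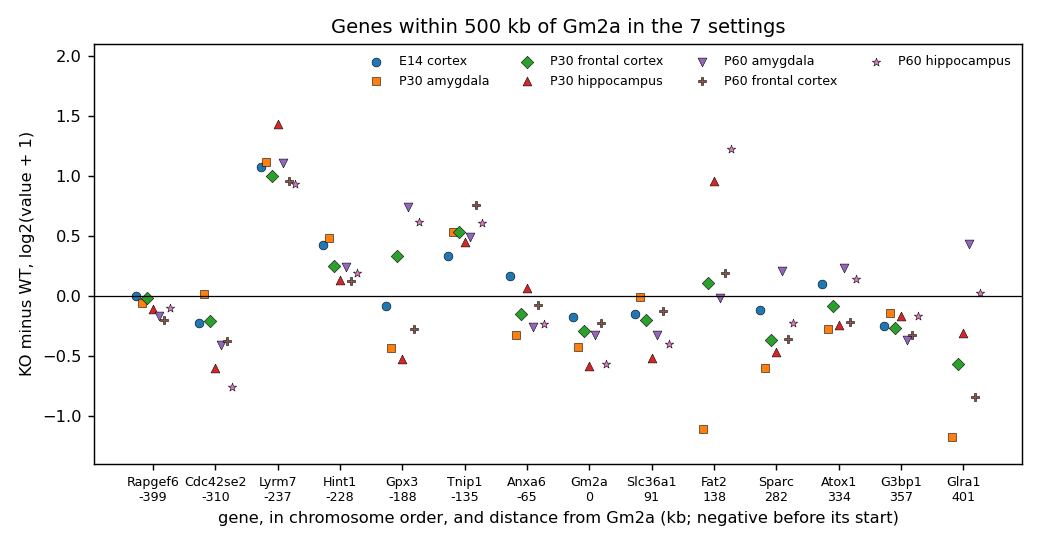
KO minus WT differences on the log2(value + 1) scale of the 14 tested protein-coding genes within 500 kb of Gm2a, in chromosome order with their distance in kb, 1 marker per setting. Lyrm7 lies between +0.93 and +1.43 and Tnip1 between +0.33 and +0.76, while Gm2a lies between -0.59 and -0.17.

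The promoters of 8 members are in the RefSeq table (GRCm38.p6), from 250 bases before to 50 after the annotated start, and were searched for CACGTG, the core of the CLEAR element bound by the lysosomal regulator TFEB. The letters read the same on both strands and overlap no other motif searched. They occur in Glb1 and Arsa, shown with 12 bases on either side and the motif in capitals, and in none of the windows of Gm2a, Hexa, Psap, Neu1, Galc and Smpd1.
Glb1, chr9:114401018-114401047, plus strand: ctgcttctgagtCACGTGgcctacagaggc
Arsa, chr15:89477423-89477452, minus strand: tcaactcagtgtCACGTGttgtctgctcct

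These letters are held by 2349 of the 32851 windows (7.15%). Both genes were lower in hippocampus than in the other regions at P60. So were Psap, whose window lacks the letters, and Asah1, which has no window and was not searched. A match is a description of the window only.

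The region differences of the ganglioside synthesis genes were read against the 37.3% of all genes called for amygdala minus frontal cortex at P30 and the 31.3% at P60. Of 10 genes 1 was called higher and 4 lower in amygdala than in frontal cortex at P30, with a median of -0.15 beside +0.06 over all genes, and 1 was called higher and 5 lower at P60. St8sia5, a sialyltransferase of complex gangliosides, differed from frontal cortex by -0.68 in amygdala and -0.72 in hippocampus at P30, and by -0.52 and -0.62 at P60. St3gal5, which makes GM3 and so opens the ganglioside pathway, differed by -0.46 in amygdala and -0.60 in hippocampus at P30, and by -0.35 and -0.42 at P60. Ugcg, which makes glucosylceramide, differed in amygdala by -0.29 at P30 and -0.19 at P60, and B4galt6, a lactosylceramide synthase, was higher there by +0.26 and +0.28.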

How the data were processed

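RNA from 52 samples in 14 groups was sequenced as stranded poly-A libraries, per the labels' protocols. The submitters' processing notes list limma and the build mm9 with no role, and the sources used here do not give the aligner or counter. The deposited tables, 1 per age, hold values that the authors normalised to effective library size, in CPM-like units, recognised from their scale since no file header states the unit. Every low value was a whole multiple of 1 read within 0.1 reads (100.0% of those up to 200 reads), which gave the reads behind it. Intervals and errors cover these samples only, and where samples may share an animal the spread may be partly technical.

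Differences were fitted with limma 3.58.1 (trend and robust) in R 4.3.3 on log2(value + 1), all groups of an age together, with Benjamini-Hochberg adjustment over all tested genes and a threshold of 0.05. The filter on low values asked for the value that 10 reads give at the median depth, in at least the number of libraries that the smallest group has, and for 15 reads in all. Fold changes on this scale understate those of low genes. Tests on simulated data recovered most of the largest changes put in. All changes put in were larger than the KO minus WT differences of the 9 members. How often changes as small as those would be called was not tested. The rule for named genes took all 9 members, called genes of the pathway lists, the 5 genes most like Gm2a in each of 2 measures, and tested genes within 500 kb of Gm2a. The members and lists were chosen with earlier results of these data known, and a few genes of the lists and 1 sequence are not reported here. Alternatives were another pseudocount, no filter, TMM scaling, voom, sex, a replicate block, an animal block, 1 genotype or 1 setting alone, and each library left out. Samples with the same number in the P60 amygdala deviated together (correlations of 0.264, 0.21 and 0.321), so the numbers were taken to pair them there, by a rule that asks for 3 or more pairs, each over 0.1. The P60 hippocampus had 2 pairs, at 0.624 and 0.496, too few for that rule, and with the block its Gm2a difference was -0.55 (limma, adjusted p = 0.2298).

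Positions of genes are from GENCODE M21 on GRCm38, since no annotation of mm9 was used. Symbols follow that annotation, in which 48058 of the 48526 identifiers were found. Symbols and full names stand under each other's header at E14.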

Additional observations from a re-analysis of the deposited data

Results flagged for a closer look

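Of the 90 sets of values of a member in a group of 4 or 5 libraries, 3 had a library that stood apart from the rest of its group, a number near the 1 in 20 that chance gives. Hexa was at 26.9 in replicate 3 of the KO P30 frontal cortex, against 24.3 to 24.5 in the other 3. Psap was at 161.5 in replicate 5 of the KO E14 cortex, above 145.8 to 150 in the other 4. Galc was at 23.6 in replicate 1 of the KO P60 frontal cortex, below 25.2 to 25.4 in the other 3. None of these 3 genes was called between KO and WT samples in that setting.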

How the results depend on the processing

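The KO minus WT difference of Gm2a was negative in each of the 7 settings under every alternative run, and in the 5 tested settings it was past the threshold in none. With 1 library left out it ran from -0.24 to -0.11 at E14, and from -0.64 to -0.16 over the postnatal settings. None of the other 8 genes was called between KO and WT samples under any alternative. In the main fits 0.0158% to 0.0489% of all genes were called. The planned count models were not run, as the tables are not typed as counts, and recovered reads with TMM scaling or voom took their place, chosen after seeing the files. With 2 KO samples in the P60 hippocampus, leaving 1 out assumes that the other varies like the remaining groups.

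The number of genes called between KO and WT samples at E14 was 9, and it was 5 with a pseudocount of 0.1, 5 with voom and 3 with a replicate block. In the P30 amygdala it was 11 with no filter and 25 when the WT samples numbered 3 were left out of all 3 regions together (an alternative chosen after seeing the data), and in the P30 frontal cortex 5 in both. In the P30 hippocampus it was 12 with the replicate block, 2 with only its own libraries and 14 with the WT samples numbered 3 left out of all 3 regions. In the P60 amygdala it was 7 with the replicate block, and in the P60 hippocampus 0 with only its own libraries. The block gave 1 gene whose KO effect differed between amygdala and hippocampus at P30, and 1 between hippocampus and frontal cortex at P60. In settings other than the P60 amygdala the numbers did not pair the samples by the rule used. With 1 library left out the counts ran from 5 to 9 at E14, 5 to 265 in the P30 hippocampus and 3 to 5 in the P60 frontal cortex. Those of KO effects ran from 0 to 5 for hippocampus minus frontal cortex and 0 to 13 for amygdala minus hippocampus at P30, and from 0 to 1 for both at P60. Those of amygdala minus hippocampus at P60 ran from 3586 to 5942.

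With KO or WT samples alone, 4192 and 4343 genes were called for amygdala minus frontal cortex at P30. At P60 WT samples gave 1845 for that comparison, 3450 for hippocampus minus frontal cortex and 3200 for amygdala minus hippocampus, and KO samples gave 3390 and 2621 for the last 2. Of the 8 genes other than Gm2a, WT samples gave 1, 0 and 2 calls at P30 (amygdala minus frontal cortex, hippocampus minus frontal cortex, amygdala minus hippocampus), and 1 and 2 for the first 2 of these at P60. The shares of all genes called in these WT fits were 22.9%, 30.1% and 30.2% at P30, and 9.58% and 17.9% at P60. KO samples gave 3 for hippocampus minus frontal cortex at P60, where 17.6% of all genes were called. TMM and voom each gave 3 for amygdala minus hippocampus at P30, with 8189 of the 18985 genes called with TMM. No filter gave 1 for amygdala minus frontal cortex at P60. Leaving out 1 library gave 1 to 4 there, with 5029 to 6064 of all genes called.

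The small Gm2a difference between amygdala and frontal cortex changed sign at P30 in WT samples (0.0426) and with 1 library left out (-0.0516 to 0.0013). At P60 it did so with TMM (-0.0587), voom (-0.0608), KO samples (-0.037) and 1 library left out (-0.0171 to 0.0473). Gm2a in WT samples at P60 was 0.0668 for hippocampus minus frontal cortex and -0.00545 for amygdala minus hippocampus. With reads of all tables scaled together, log2 differences of P30 from E14 in WT cortex were 2.24 for Gm2a, 0.8286 for Hexa, 1.93 for Psap, 1.53 for Neu1, 0.302 for Glb1, 0.105 for Galc, 0.8998 for Arsa, 0.00949 for Asah1 and 1.23 for Smpd1. Over all alternatives together, the 61 tested KO minus WT differences of the 9 genes that were not past the threshold changed sign 58 times, and the 27 such region differences changed sign 39 times and were called 19 times. The cause of these changes was not tested.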
